A study of Rattus norvegicus with 9 samples.

Results

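Isolated accessible regions are stretches of open chromatin shorter than 1500 bp that lie more than 20 kb, edge to edge, from any H3K4me1 region on the same chromosome. The rule used positions only, and it found 17441 of the 186719 accessible regions of the rat dorsal root ganglion (DRG), which is 9.34%. The ATAC-seq libraries came from the lumbar (L4-L6) DRGs on the injured or corresponding side of adult female Sprague-Dawley rats, and each library was made from 1 rat. In the CCI group, 2 rats were studied 14 days after chronic constriction injury of the sciatic nerve, in which loose ligatures around the nerve produce lasting hypersensitivity of the hind paw, and the naive group held 3 rats without surgery. No sham-operated group was compared, so injury and surgery cannot be told apart. The H3K4me1 positions came from ChIP-seq of 4 samples (2 per group, each with the DRGs of 3 rats pooled) and were given as a single list for both groups together, so the distance to the mark is the same in CCI and naive rats.

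ATAC-seq uses the Tn5 transposase to cut and tag DNA where nucleosomes leave it exposed, so a region with many reads is open in many of the nuclei sampled. H3K4me1, the monomethylation of lysine 4 of histone H3, is a mark of enhancers and of the chromatin that flanks active promoters. Accessible sites without the mark include insulator sites bound by CTCF and the starts of active genes, which carry trimethylation instead. A DRG holds the cell bodies of sensory neurons together with satellite glia, Schwann cells, macrophages, endothelium and fibroblasts. In bulk tissue, fewer cells of a type and less accessibility per cell cannot be told apart.

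The 5 libraries held between 4633807 and 13248437 reads in accessible regions, with the fewest in naive rat 2 and the most in naive rat 1. Each value is the number of reads in a region divided by a size factor, the library's depth relative to naive rat 2, and is called normalized reads below. No region was listed at 0 in any library. The lowest value was worth 1 read, and in CCI rat 1 it was listed for 3669 regions while 2880 regions held 2 reads, so that a value of 1 read may also stand for none. The files name no genes. Levels of marker genes of the DRG's cell types could therefore not be checked, and the tissue is as labelled.

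Isolated regions were small and far from the mark, but most were not alone. Their median length was 223 bp, against 366 bp for the 58445 accessible regions that overlapped H3K4me1, and together they covered 4.727 Mb. The median distance to the nearest H3K4me1 region was 31.8 kb and the largest 456.9 kb. The nearest other accessible region lay a median of 5.07 kb away, compared with 4.13 kb for the other regions without the mark and 2.73 kb for regions overlapping H3K4me1. An accessible neighbour lay within 1 kb of 25.3% of the isolated regions and 26.2% of the other regions without the mark. Only 12.2% of the isolated regions (2130 regions) lay more than 20 kb from every other accessible region. Among the other regions without the mark this share was 6.19%.

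Accessible regions thinned out with distance from the mark. Within 1 kb of an H3K4me1 region there were 59.0 accessible regions per Mb of genome, at 20 to 30 kb there were 44.8, at 50 to 100 kb 27.8, and beyond 100 kb 9.32. The isolated regions fell into 6059 gaps between neighbouring H3K4me1 regions, with a median gap of 75.5 kb, and 23 lay beyond the first or last H3K4me1 region of a chromosome. A gap held a median of 2 isolated regions, 2373 gaps held 1 and 206 held 10 or more. The fullest gaps, with 29 isolated regions each, were on chromosome 1 (254316962 to 254696757) and chromosome 20 (13523462 to 13798704), and the widest gap, on chromosome 6, spanned 1290.5 kb and held 9.

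At the edge of the rule, members and other regions had low values alike. The member nearest to the mark, chr17:90524722-90524889, was 20001 bp away and had 6.01 (CCI rat 1) and 4.12 (CCI rat 2) normalized reads, and in the naive rats 2.61, 2 and 11.83, in the order of their numbers. The region just outside, chr11:88810450-88810701, was 20000 bp away and had 8.68 and 10.99 in the CCI rats and 6.21, 2 and 5.26 in the naive rats. A further 36 regions lay more than 20 kb away but were 1500 bp or longer and were left out by the rule.

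Isolated regions were weakly accessible. Per length, their median was 34.1 normalized reads per kb over the 5 rats, with the middle 50% of regions between 28.8 and 40.4, whereas regions overlapping H3K4me1 had a median of 55.7 and the other regions without the mark 37.5. The strongest isolated region reached 384 normalized reads per kb, against 3930 for the strongest of all regions.

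Of the 10 strongest isolated regions per base, 7 lay in 1 stretch of chromosome 1 (180557677 to 181215928, 658.3 kb). This stretch held 110 accessible regions, 36 of them isolated, and 17 H3K4me1 regions, and its isolated regions had a median of 129 normalized reads per kb. The strongest of all, chr1:181074725-181075210, was 65.8 kb from the mark and had 140 and 181 normalized reads in the CCI rats and 230, 190 and 193 in the naive rats. Both CCI values were below the naive values, yet the log2 fold change of -0.36 ± 0.26 (SE) had an unadjusted p of 0.164 (limma). Another region of the stretch, chr1:180856208-180856771 (355 normalized reads per kb) had 216 and 200.52 in the CCI rats and 205, 198 and 181 in the naive rats, and the groups overlapped. The widest region of the stretch among the 10, chr1:180557677-180558674, had 272 and 286 in the CCI rats and 295, 239 and 260 in the naive rats. The 36 isolated regions of the stretch had a median log2 fold change of -0.20, and none passed p below 0.01 (0 of 36, limma), a count too small to read against the share of calls among all isolated regions.

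**Figure D1:**
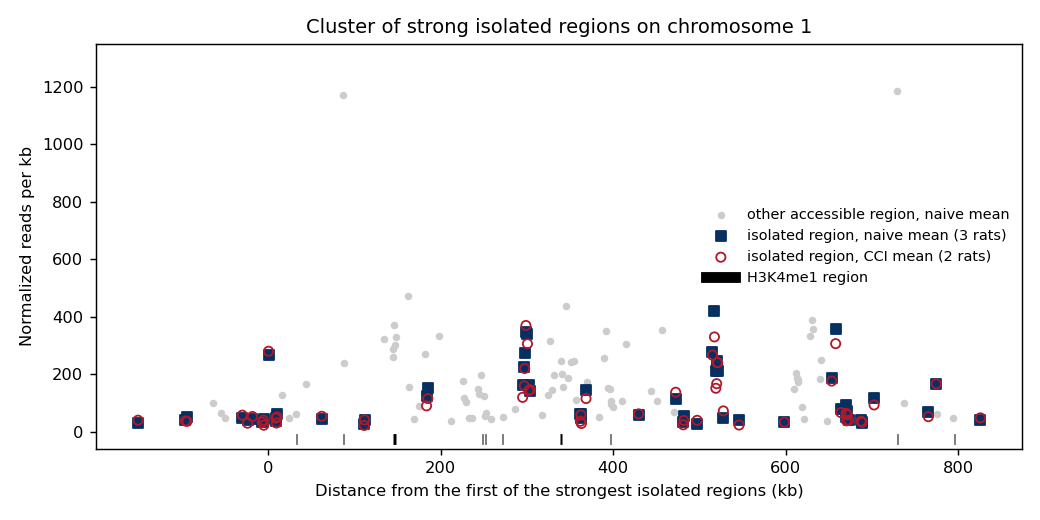
Normalized reads per kb (vertical axis) of accessible regions along the stretch of chromosome 1 that holds 7 of the 10 strongest isolated regions, by distance in kb from the first of the 7. Squares are naive means over 3 rats and open circles CCI means over 2 rats for isolated regions, grey points are other accessible regions (naive means), and black bars mark H3K4me1. Circles and squares of the strong isolated regions lie close together, and several strong regions sit side by side.

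The other 3 of the 10 strongest were also similar between the groups. On chromosome 1, chr1:39283958-39285127 had 304 and 249 normalized reads in the CCI rats and 316, 290 and 288 in the naive rats. On chromosome 9, chr9:4394374-4394523 had 36.1 and 34.8 in the CCI rats and 33.0, 62.0 and 42.7 in the naive rats, and its neighbour chr9:4396404-4396656, about as strong per base, had 73.4 and 67.8 and 49.7, 65.0 and 77.5. In all 3 the CCI and naive values overlapped, and the unadjusted p was 0.673, 0.266 and 0.543 (limma).

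The comparison of CCI with naive rats asked whether accessibility far from the enhancer mark changed after nerve injury. Among the isolated regions, 340 were less accessible after CCI and 49 more accessible at p below 0.01 (limma). The less accessible regions were 1.95% of the isolated regions, where 1.46% of all accessible regions were called lower. Regions overlapping H3K4me1 were called lower as often (1.96%), and the other regions without the mark less often in these counts (1.13%). The more accessible ones were 0.281%, where 2.13% of all accessible regions and 3.44% of those overlapping H3K4me1 were called higher. Lower regions thus made up 87.4% of the calls among isolated regions and 40.8% among all regions. With 61 isolated regions at an adjusted p below 0.05, all of them lower (0.35% of isolated regions, background 0.237%, regions overlapping H3K4me1 0.334%), the isolated regions held 13.8% of the 443 lower regions of the whole set. No isolated region was higher at an adjusted p below 0.05 (limma), where 0.107% of all regions were. At an unadjusted p below 0.05, 270 isolated regions were higher (1.55%, background 7.21%), and edgeR and DESeq2 called 46 and 4 higher at p below 0.01, where they called 2.52% and 0.711% of all regions higher. They called 314 and 157 isolated regions lower, against 1.36% and 0.688% of all regions.

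The same lean towards lower values was present without a threshold. The median log2 fold change of the isolated regions was -0.14, and that of all regions 0.13. A fold change was below 0 in 58.0% of the isolated regions and in 41.9% of all regions. Both CCI values lay below all naive values in 15.7% of isolated regions (background 11.0%) and above them in 8.71% (background 18.2%). Of the 389 regions called at p below 0.01, 367 had no overlap between the groups. That count follows largely from the choice by p, and it was not compared with all called regions.

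How far the lower calls exceeded the background depended on the scaling. After centring on the median of each 1 Mb window, 235 isolated regions were lower (1.35%, background 1.97%) and 92 higher (0.527%, background 0.659%), lower regions were 71.9% of the calls, and the median was -0.005. With reads drawn down to equal depth, 2.38% were lower (all regions 2.58%), and with the medians of 20 signal classes removed 3.35% were (all regions 3.29%). The share called higher stayed below that of all regions under every alternative that kept the same members. Median-of-ratios rescaling moved the median of all regions from 0.13 to 0.03 and that of the isolated regions to -0.23. It applies 1 factor per library, so the gap between these medians could hardly change (-0.262, against -0.267 before). With 1 Mb window medians removed, the gap was -0.0271.

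The balance of calls changed with distance from H3K4me1. Regions called higher fell from 3.44% among overlapping regions and 2.45% within 1 kb to 0.589% at 10 to 20 kb and 0.255% at 20 to 30 kb. Regions called lower followed no single direction. Their share was 1.96% among overlapping regions, 0.758% within 1 kb, 1.81% at 20 to 30 kb, 2.26% at 30 to 50 kb and 0.969% beyond 100 kb. The median log2 fold change was 0.28 within 1 kb, -0.11 at 20 to 30 kb, -0.16 at both 30 to 50 kb and 50 to 100 kb, and -0.02 in the 516 regions beyond 100 kb. With 1 Mb window medians removed, these medians became 0.13, 0.01, -0.03, -0.01 and 0.06, and lay closer together. The median of overlapping regions went from 0.15 to -0.05 and was then below that of every distance band.

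**Figure D2:**
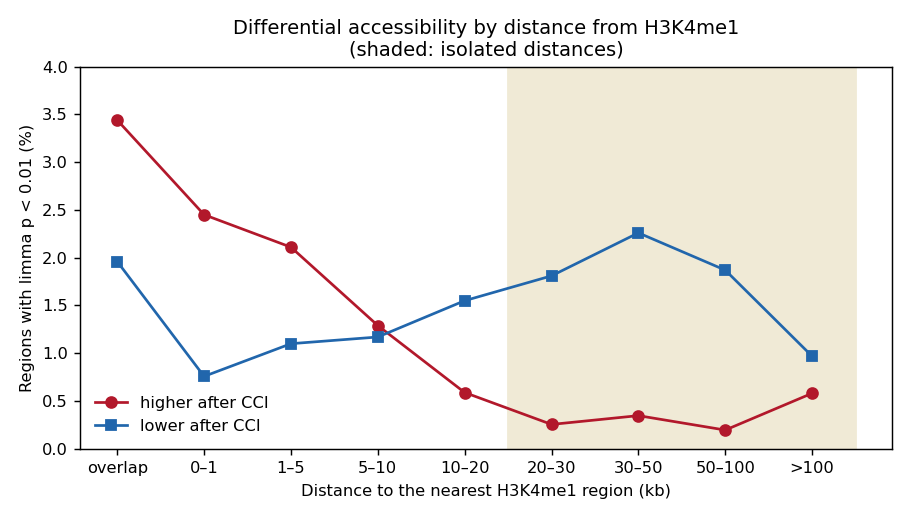
Percent of accessible regions with limma p below 0.01 (vertical axis) by distance to the nearest H3K4me1 region in kb (horizontal axis), for regions higher and lower after CCI. Overlapping regions are at the left and the distances of the isolated regions are shaded (these bands also hold the 36 regions of 1500 bp or longer). Calls of higher accessibility fall from 3.44% to 0.255% at 20 to 30 kb, while calls of lower accessibility are between 0.969% and 2.26% in the shaded bands.

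The share of reads in isolated regions varied between rats of the same group. The CCI rats had 3.20% and 4.06% and the naive rats 4.80%, 3.72% and 4.34%, or 3.63% ± 0.608 (SD, n = 2) and 4.29% ± 0.542 (SD, n = 3). The groups overlapped, because CCI rat 2 lay above naive rat 2. The median isolated region had 6.68 and 7.78 normalized reads in the CCI rats and 9.15, 7 and 7.89 in the naive rats. Naive rat 1, the deepest library, held the highest value of 34.7% of isolated regions but of 21.0% of all regions. CCI rat 1 held the highest value of 15.1% of isolated regions but of 29.7% of all regions.

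The number of lower calls depended on these rats. Without naive rat 1, 151 isolated regions were lower at p below 0.01 (0.866%, all regions 0.735%) and 5 at an adjusted p below 0.05, with a median log2 fold change of -0.02. Without CCI rat 1, 206 were lower, and their share was then below that of all regions (1.18%, all regions 1.5%). In that setting 6 were higher (0.0344%, all regions 0.29%). The 61 regions past the adjusted threshold were followed at p below 0.01, a looser threshold than the one that chose them. All 61 kept it with window medians removed and at equal depth, 60 without naive rat 1 and 57 with DESeq2. Fewer than with DESeq2 kept it without CCI rat 1, a fit that leaves 1 rat in the CCI group. At an adjusted p below 0.05, 127 isolated regions were lower at equal depth, 47 with window medians removed and 4 with DESeq2. With the replicate block 17 were. These counts, and the 5 without naive rat 1, were not compared with all regions at that threshold, so they show no excess.

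**Figure D3:**
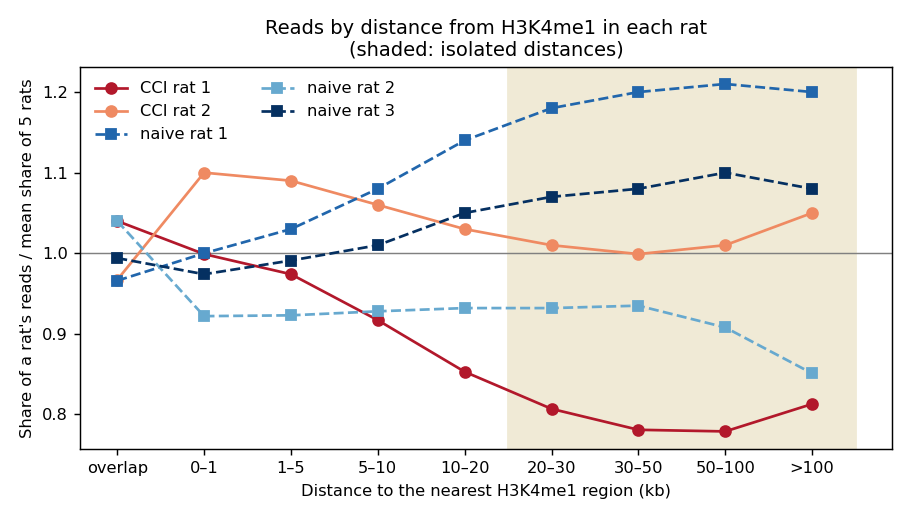
Share of a rat's reads in accessible regions at each distance from H3K4me1 (horizontal axis, kb), divided by the mean share over the 5 rats (vertical axis). Circles with solid lines are CCI rats and squares with dashed lines naive rats, and the distances of the isolated regions are shaded. At 30 to 50 kb the ratios are 0.781 and 0.999 in the CCI rats and 1.20, 0.935 and 1.08 in the naive rats, with CCI rat 2 above naive rat 2.

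Among the more accessible of the isolated regions, lower calls were frequent. All accessible regions were divided into 5 equal classes by mean normalized reads over the 5 rats, and 931 isolated regions fell in the highest class (22.2 normalized reads or more). In that class 133 isolated regions (14.3%) were lower and 5 (0.537%) higher at p below 0.01, whereas 3.82% of the other regions of the class were lower and 4.75% higher. The median log2 fold change was -0.23 for the isolated regions of the class and 0.08 for the others. In the lowest class, which held 5413 isolated regions, 4 were lower and none higher (0 of 5413, limma), and 9 lower and 3 higher were called among 31931 other regions, so that few changes were detectable at that signal. Of the 61 regions with an adjusted p below 0.05, 41 were in the highest class, 19 in the next and 1 in the middle class.

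**Figure D4:**
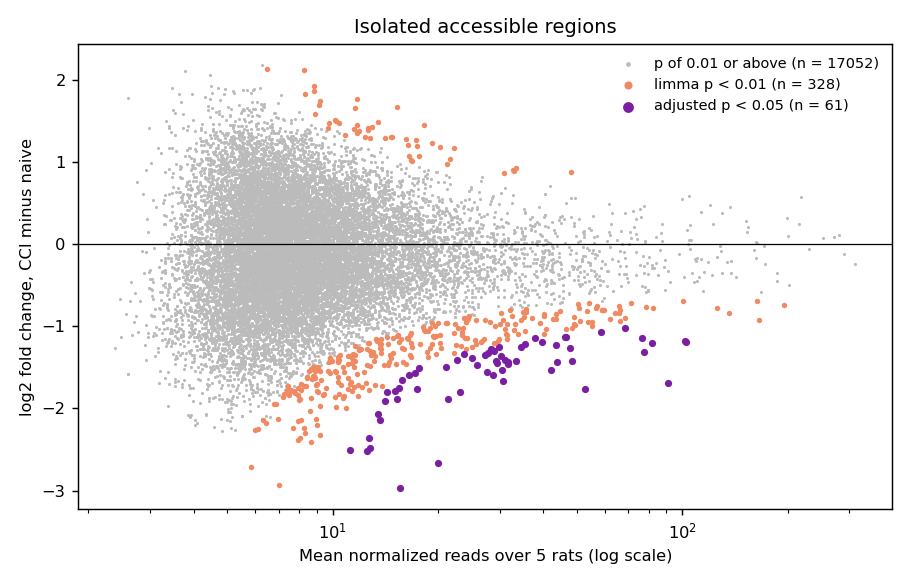
Log2 fold change, CCI minus naive (vertical axis), of the 17441 isolated regions against their mean normalized reads over 5 rats (horizontal axis, log scale). Grey points have p of 0.01 or above, orange points p below 0.01 and purple points an adjusted p below 0.05 (limma). The 61 purple points all lie below 0, between -1.03 and -2.97.

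The isolated region with the lowest p was chr5:98364414-98365444, which is 1031 bp long and 21.6 kb from the mark. It had 32.0 and 45.8 normalized reads in the CCI rats and 130, 124 and 123 in the naive rats. Every naive value was far above both CCI values, and the log2 fold change was -1.69 ± 0.26 (SE), with an adjusted p of 2.23e-06 (limma). Its 1 Mb window had a median log2 fold change of -0.40 over 61 regions, and relative to that window the region fell by 1.24 on the log2 scale (adjusted p = 6.85e-05, limma).

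On chromosome 6, 2 isolated regions were among the 5 falls with the lowest p. The first, chr6:55298992-55299692, had 18.0 and 24.3 normalized reads in the CCI rats and 75.8, 71.0 and 74.3 in the naive rats. The naive rats agreed closely (73.7 ± 2.45, SD, n = 3), and the log2 fold change was -1.77 ± 0.28 (SE; adjusted p = 7.72e-06, limma). The second, chr6:62059868-62060321, lay 88.4 kb from the mark and had 16.7 and 21.5 in the CCI rats and 67.6, 48.0 and 56.5 in the naive rats. Both regions were chosen among falls without overlap between the groups. The second had a log2 fold change of -1.53 ± 0.29 (SE; adjusted p = 0.000783, limma).

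In the remaining 2 of these falls, CCI rat 1 was at its own lowest value, worth 1 read. On chromosome 9, chr9:74397851-74398093 had 0.67 (1 read) and 11.9 normalized reads in the CCI rats and 32.0, 36.0 and 19.7 in the naive rats. On chromosome 19, chr19:28569417-28569965 had 0.67 (1 read) and 5.04 in the CCI rats and 21.2, 27.0 and 23.7 in the naive rats. The CCI rats differed from each other by more than the naive rats did on the log scale, and the log2 fold changes of -2.66 ± 0.43 and -2.97 ± 0.50 (SE) depend on the pseudocount and on single rats. Without CCI rat 1 they were -1.19 and -2.04, and without CCI rat 2 -4.14 and -3.9. Their adjusted p was 1.42e-05 and 2.78e-05 (limma), and DESeq2 did not call chr9:74397851-74398093 at p below 0.01.

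**Figure D5:**
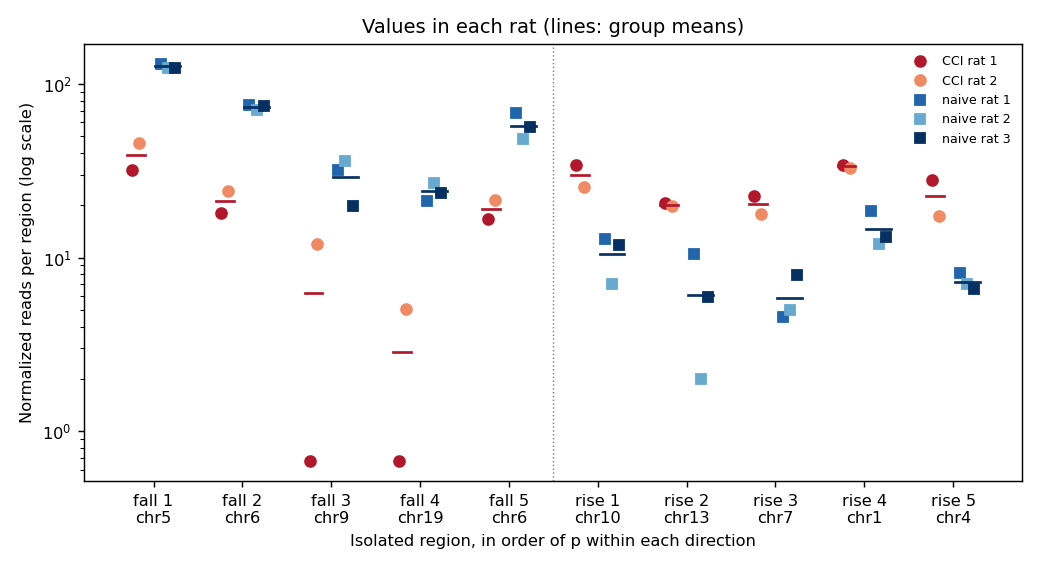
Normalized reads (vertical axis, log scale) in each rat for the 5 falls and the 5 rises with the lowest p among isolated regions (horizontal axis, with their chromosomes). Circles are CCI rats, squares naive rats and lines group means. The regions were chosen among those whose CCI and naive values do not overlap. In falls 3 and 4 CCI rat 1 is at its own lowest value of 0.67.

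The largest falls by fold change were mostly in short regions with few reads. They included the regions on chromosomes 9 and 19 above. On chromosome 2, chr2:82228564-82228715 had 0.67 and 0.46 normalized reads in the CCI rats (1 read each) and 7.19, 13.0 and 13.8 in the naive rats. The ratio of CCI to naive reads was 0.0541, with an exact 95% counting interval of 0.0064 to 0.205. The region chr2:101522409-101522582, also with 1 read in each CCI rat, had 11.1, 9 and 7.89 in the naive rats, a ratio of 0.0551 (0.00651 to 0.209). Neither reached an adjusted p below 0.05 (0.0902 and 0.187, limma). The first lost p below 0.01 without naive rat 2 or 3 and the second without any 1 of the naive rats. The fifth, chrX:56294885-56295487, had 4.01 and 1.37 in the CCI rats and 25.2, 17.0 and 15.1 in the naive rats, with a log2 fold change of -2.51 ± 0.53 (SE; adjusted p = 0.00457, limma).

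Rises were fewer, and none passed the adjusted threshold. The isolated region with the lowest p among them, chr10:70642658-70643062, had 34.0 and 25.6 normalized reads in the CCI rats and 12.7, 7 and 11.8 in the naive rats. It was chosen among rises without overlap between the groups, and its log2 fold change was 1.45 ± 0.39 (SE; unadjusted p = 0.000242, adjusted p = 0.0594, limma). Next came chr13:83624021-83624336, with 20.7 and 19.7 in the CCI rats and 10.5, 2 and 5.91 in the naive rats. In chr7:58844830-58845117 the CCI values were 22.7 and 17.9 and the naive values 4.57, 5 and 7.89. In chr1:41675934-41676579, the only region of these with a listed gene within 500 kb (Myct1, at most 446 kb away), the CCI values were 34.0 and 33.0 and the naive values 18.6, 12.0 and 13.1. Their adjusted p was 0.0935, 0.115 and 0.115 (limma). The fifth, chr4:82138832-82139088, had 28.0 and 17.4 against 8.17, 7 and 6.57, and lay in a window whose regions had a median log2 fold change of 0.47. Relative to that window it no longer passed p below 0.01. Without CCI rat 1, none of these 5 rises passed p below 0.01 (0 of 5, limma), and 3 did with DESeq2.

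By fold change the largest rise was chr5:113673956-113674229, with 14.02 and 11.9 normalized reads in the CCI rats and 2.61, 2 and 1.97 in the naive rats (8, 2 and 3 reads). The log2 fold change was 2.13 ± 0.79 (SE) and the unadjusted p 0.00728 (limma). The other 4 of the 5 largest rises, chr4:125709961-125710261, chr2:221770793-221770987, chr13:18484399-18484744 and chr13:78555297-78555609, had log2 fold changes between 1.83 and 2.12. In each of them naive rat 2 held 1 or 2 reads, so the size of these rises is imprecise. Their adjusted p ranged from 0.181 to 0.218 (limma). Without CCI rat 1 none of the 5 largest rises passed p below 0.01 (0 of 5, limma), without CCI rat 2 and with DESeq2 1 did, and without naive rat 2 3 did.

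Some falls lay side by side. With falls at most 20 kb apart joined, 17 runs held 41 of the 340 lower regions, and 12 of the runs were pairs. Runs start and end at a lower region by definition, and none were counted among other regions. Whether falls lie closer together than isolated regions do was therefore not tested. The run with the most, on chromosome 1 (195822516 to 195856139, 33.6 kb), held 5 lower regions, and all 14 isolated regions within it had a fold change below 0. Its widest member, chr1:195854818-195856139, had 79.4 and 141 normalized reads in the CCI rats and 202, 209 and 196 in the naive rats (log2 fold change -0.93 ± 0.25, SE; adjusted p = 0.0601, limma). In chr1:195829749-195830402 the CCI values were 27.4 and 28.8 and the naive values 66.3, 59.0 and 50.6 (adjusted p = 0.0624, limma). The groups were apart in both. Without CCI rat 1 the log2 fold change of chr1:195854818-195856139 was -0.52 and the call was lost, as it was with the replicate block. None of the 5 regions reached an adjusted p below 0.05. Their 1 Mb window had a median log2 fold change of -0.26, and with window medians removed 3 of the 5 no longer passed p below 0.01.

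A pair on chromosome 8 was stronger. In chr8:2970671-2971491 the CCI values were 54.1 and 60.4 normalized reads and the naive values 136, 144 and 115. In chr8:2975843-2976771, 4351 bp further on, they were 56.7 and 58.6 and 134, 130 and 134. The groups were far apart in both regions, with log2 fold changes of -1.18 ± 0.26 and -1.19 ± 0.25 (SE; adjusted p = 0.00581 and 0.00559, limma). All 3 isolated regions in this run of 6.6 kb were called lower, the first and the last by the definition of a run.

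Pairs past the adjusted threshold within 200 kb were also found on chromosomes 4 and 5. On chromosome 4, chr4:18227994-18228798 had 28.0 and 22.9 normalized reads in the CCI rats and 71.6, 59.0 and 57.2 in the naive rats (log2 fold change -1.26 ± 0.28, SE; adjusted p = 0.00916, limma). Its neighbour chr4:18246577-18247045 had 13.4 and 0.92 in the CCI rats and 18.3, 17.0 and 21.0 in the naive rats, and rested on CCI rat 2: without that rat the log2 fold change was -0.46 and the call was lost. On chromosome 5, chr5:15549876-15550312 had 20.7 and 17.9 in the CCI rats and 46.1, 45.0 and 47.3 in the naive rats, with a log2 fold change of -1.22 ± 0.30 (SE; adjusted p = 0.0282, limma). The other member of that pair, chr5:15435227-15435696, had 16.7 and 14.2 against 34.0, 55.0 and 29.6 (adjusted p = 0.0368, limma). The groups were apart in all 4 regions.

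Of the regions that the study's supplement lists as differentially accessible, as far as they were used here, 1 at a promoter coincided with an isolated region. Only the study's promoter list could hold an isolated region, because its other list was drawn from accessible regions with H3K4me1. Isolated regions at other promoters could not be seen this way. The region chr2:266141236-266141815 overlapped a region that the study assigns to the start of Rpe65, which encodes the isomerohydrolase of the visual cycle. It had 29.4 and 18.3 normalized reads in the CCI rats and 49.7, 51.0 and 69.0 in the naive rats. Both CCI values were below all naive values, and the log2 fold change was -1.23 ± 0.29 (SE; adjusted p = 0.0153, limma). Since the study listed this region for its difference between the same rats, the list is not independent evidence of the direction.

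Genes on the study's list were counted near the strongest falls, but not near all isolated regions. The counts therefore cannot be called few or many. Of the 61 regions past the adjusted threshold, 21 lay at most 500 kb and 4 at most 100 kb from the start of a gene on the study's list. That list was available without its last rows and names only genes near regions that differed, so the counts are minimums and the gene need not be the closest. Among these, chr8:99852163-99852541 (18.0 and 18.3 normalized reads in the CCI rats, 47.7, 55.0 and 33.5 in the naive rats) lay within 28.7 kb of Plscr4, a phospholipid scramblase. The region chr16:41294146-41294721 (21.4 and 20.6 against 66.7, 66.0 and 44.7) lay within 61.2 kb of Aga, a lysosomal aspartylglucosaminidase. Others, picked by gene after their values were seen, lay farther away. Regions near other listed genes were not picked, such as those of Tmem229a (within 62.3 kb), Ythdc1 (within 150 kb) and Epdr1 (within 174 kb). The region chr15:93203361-93203713 (7.34 and 10.1 against 38.6, 33.0 and 26.9) was within 105 kb of Slitrk1, which encodes a synaptic adhesion protein, and chr2:170627551-170627861 (14.02 and 14.2 against 39.5, 33.0 and 38.1) within 167 kb of Slitrk3 of the same family. A protocadherin gene, Pcdh17, was within 241 kb of chr15:67796180-67796679 (12.7 and 17.4 against 42.2, 47.0 and 38.8), and the secreted guidance cue Sema3c within 262 kb of chr4:14748093-14749132 (27.4 and 24.7 against 85.0, 51.0 and 44.7). In each of the 6 regions whose values are given here, both CCI values were below all 3 naive values, with adjusted p between 0.00187 and 0.0327 (limma). These positions do not link a region to a gene.

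Isolated regions were unevenly spread over the 21 chromosomes. They made up 14.9% of the accessible regions on chromosome X, 13.6% on chromosome 2 and 13.5% on chromosome 13, but 2.65% on chromosome 12 and 2.52% on chromosome 10. Their median log2 fold change was below that of all regions of the same chromosome on all 21 chromosomes, and below 0 on 20. The exception was chromosome 10, where the median was 0.15 for the 196 isolated regions and 0.49 for all regions, and where 4 isolated regions were higher and 1 lower. On chromosome 2, with 2428 isolated regions, the medians were -0.19 and -0.03, and 61 isolated regions were lower and 5 higher. More isolated regions were lower than higher on 20 chromosomes, but the share called lower was above that of all regions of the same chromosome on 15 (chromosome 2, 2.51% and 2.25%), and on chromosome X it was below (1.46% and 2.06%). Of the 61 past the adjusted threshold, 11 were on chromosome 2 and 11 on chromosome 4.

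The regions farthest from the mark did not differ between the groups beyond their spread. The farthest, chr7:6731487-6731820, was 456936 bp from any H3K4me1 region and 294888 bp from any other accessible region. It had 8.68 and 16.9 normalized reads in the CCI rats and 9.48, 9 and 14.5 in the naive rats, with a log2 fold change of 0.17 ± 0.46 (SE; adjusted p = 0.911, limma). For chr1:179473522-179474210 the values were 18.0 and 26.6 in the CCI rats and 26.8, 16 and 17.1 in the naive rats, and for chr7:5679069-5679511 they were 25.4 and 8.24 and 8.82, 19.0 and 9.20. In all 3 the groups overlapped.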

How the data were processed

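Per the paper's methods, the authors aligned trimmed ATAC-seq reads to rn6 (Bowtie2), discarded duplicates and poorly mapped reads, shifted each read to its Tn5 insertion, called regions with MACS2 and counted reads with DiffBind. The submitters' processing notes also name CASAVA 1.8.2 and limma. Other versions are not given in the sources used here. The deposited signal holds reads per region divided by a size factor relative to naive rat 2. The authors called broad H3K4me1 regions against input and merged them into a single list of positions.

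Multiplying by each size factor gave back whole reads for 100% of values (within 0.068 reads). Libraries held 4633807 to 13248437 reads in regions, with a median of 7 reads per isolated region in the smallest, and intervals cover counting error only. Edge-to-edge distances to H3K4me1 were computed in Python 3.11.15 (pandas 2.3.3, numpy 2.4.6, matplotlib 3.10.9). The test was limma 3.58.1 (R 4.3.3) with a mean-variance trend on log2(value + 1), without covariates or filter, fitted on all 186719 regions, two-sided, with p below 0.01 as threshold. The study's methods give 0.05, which was tried. Adjusted p-values are Benjamini-Hochberg values over all regions. The script was checked on simulated data.

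Named regions were the 10 with the highest mean normalized reads per base, the 3 farthest from H3K4me1, those at the edge of the distance rule and, among regions with p below 0.01 and no overlap between groups, the 5 largest changes and the 5 lowest p in each direction. Neighbouring falls and regions described by a gene were picked after their values were seen. The members and lists were chosen with earlier results of these data known. Gene names come from positions of regions that the study's supplement lists as differentially accessible, are given up to 500 kb, and need not be the closest gene. Part of that list was not used here, since its last rows were cut off. Values of that list were not used. Gene lists, motifs and sequences were not analysed here, since no rn6 genome or annotation was used.

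Alternatives were other thresholds, pseudocounts of 0.1 and 10, omission of the weakest 25% of regions, median-of-ratios rescaling, centring on 1 Mb windows (whole chromosomes where a window had fewer than 20 regions), thinning to the smallest depth, edgeR 4.0.16 (quasi-likelihood) and DESeq2 1.42.0 on recovered reads, a replicate block, omission of each rat, and other distance rules. Centring on 20 classes of signal was added after the values had been seen.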

Additional observations from a re-analysis of the deposited data

How the results depend on the processing

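At p below 0.05, 270 isolated regions were more accessible after CCI (1.55%, all regions 7.21%) and 913 less accessible. The 913 were not compared with all regions at that threshold. At an adjusted p below 0.05 there were 0 and 61 (all regions 0.107% and 0.237%). The number of more accessible regions, 49 as reported, was 31 with median-of-ratios rescaling, 92 with 1 Mb window medians removed, 31 at equal depth and 4 with DESeq2. The number of less accessible regions, 340 as reported, was 584 with signal class medians removed and 157 with DESeq2. When single rats were left out, the number of more accessible regions ranged from 6 (without CCI rat 1) to 48, and that of less accessible regions from 151 (without naive rat 1) to 459. The other alternatives kept both counts within 1.5 times. The median log2 fold change stayed below 0 throughout, between -0.258 with signal class medians removed and -0.00457 with window medians removed, and between -0.234 and -0.0182 when single rats were left out, and the difference in the share of reads in isolated regions between -1.09 and -0.229 percentage points. A lone CCI rat was assumed to vary like the others. The cause of these shifts was not tested.

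A distance above 10 kb gave 37095 regions, with 165 more and 641 less accessible, and one above 50 kb gave 3559, with 9 and 62. Counting only H3K4me1 regions of at least 1 kb gave 83157 regions, with 620 and 1400. Among all 186719 accessible regions, 3968 were more accessible (2.13%) and 2735 less accessible (1.46%). The counts under these rules do not by themselves show an excess over those shares. Of the 340 less accessible regions, every one kept a fold change below 0 under each alternative that tested it. With DESeq2, 4 isolated regions had an adjusted p below 0.05, a count not compared with all regions. Over the 43 named regions and all alternatives (643 values), no named region that was called changed direction, 64 values lost p below 0.01, 33 of them when a rat was left out, and 2 gained it.

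With the replicate number as a block, 41 isolated regions were more accessible (0.235%, all regions 1.28%) and 234 less accessible (1.34%, all regions 0.835%). Of the latter, 17 had an adjusted p below 0.05, a count not compared with all regions. The median log2 fold change was -0.148. The rats are different animals. Deviations of same-numbered rats from their group means correlated at -0.0622 and -0.0564. The deviations of the 2 CCI rats mirror each other, so these correlations cannot settle whether the numbers pair the samples. The correction for GC content was not run, since it needs the rn6 genome. With a median of 7 reads per isolated region in naive rat 2, small changes of weak regions were not detectable.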
